A study of Mus musculus with 12 samples.

Results

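Genes of Toll-like receptors and of the sensing of lipopolysaccharide (LPS) were followed through the activation and differentiation of mouse B cells. The members are 10 genes of the 27179 in the count table, found by their mouse Entrez gene identifiers: Tlr1, Tlr2, Tlr4, Tlr7, Tlr9, Cd180, Ly86, Ly96, Myd88 and Unc93b1. They were chosen by function, with earlier results of these data known. On the mm10 build, Tlr4 lies on chromosome 4 (66827551 to 66846581), Ly96 on chromosome 1 (16688456 to 16709605), Tlr2 on chromosome 3 (83836272 to 83841824), Unc93b1 on chromosome 19 (3935158 to 3949340) and Tlr7 on chromosome X (167303380 to 167330574). Chromosome 13 carries both Ly86 (37345345 to 37419036) and Cd180 (102693547 to 102706631). RNA-Seq was done on 12 libraries of splenic B cells from male C57BL/6 mice, 2 per stage. Naive B cells were sorted by flow cytometry on markers that included B220, IgM and a high level of IgD, without TCRβ. The cells of every later stage had been cultured with 25 µg/ml of LPS from Salmonella typhosa. At 3, 10 and 33 h, undivided CD69+ cells with the highest dye content were sorted, and on day 4 the culture was split into expanded B cells, which kept CD22 and lacked CD138, and plasmablasts, which had lost CD22 and gained CD138. Cultured cells had first been isolated by negative selection, and the day 4 cultures were set up at a lower density than the earlier ones. There was no culture without LPS, so the ligand, time in culture, cell density, isolation and sorting cannot be told apart.

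LPS, from the outer membrane of Gram-negative bacteria, is recognised by Toll-like receptor 4 together with MD-2, a small secreted protein encoded by Ly96. B cells also carry a second, related pair: RP105 (Cd180), which looks like TLR4 outside the cell but lacks its signalling domain, and MD-1 (Ly86), the MD-2 homologue that RP105 needs to reach the surface. TLR2 forms heterodimers with TLR1 or TLR6 and senses bacterial lipopeptides, whereas TLR7 and TLR9 sense RNA and unmethylated CpG DNA in endosomes, to which they are carried by UNC93B1. MyD88 is the adaptor that links all of these Toll-like receptors to the IRAK kinases.

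Total counts ran from 23026619 to 60585587 per library, with a median of 37839944.5. The B cell markers Ms4a1, Cd79a, Cd79b, Cd22, Cr2 and Pax5 were detected in every library, as were 5 plasmablast markers. These 6 B cell markers summed to 9626 and 9372 CPM (counts scaled to the same library total) in naive cells, 4045 and 4043 at 3 h, from 3211 to 4681 in the next 3 stages, and 1858 and 1805 in plasmablasts. Their sum was thus lower at steps where members also fell, and its part in those falls was not tested. Cd22, the sorting marker, had 44 and 45 counts in the plasmablast libraries against 17483 and 13820 in expanded B cells. Both naive libraries held RNA of myeloid marker genes. The summed level of 17 myeloid markers was 306 and 141 CPM in naive replicates 1 and 2 and 4.86 to 46.5 CPM in the other 10 libraries. Of the defining markers, Lyz2 had 5032 and 1642 counts in naive cells and at most 2 elsewhere, and S100a8 had 1618 and 485 counts and was at 0 in all other libraries. Of the 17, 3 were also high later: Itgam was 8.742 and 5.084 CPM in naive and 24.27 and 21.82 CPM in expanded cells, Adgre1 was 10.7 and 10.57 CPM against 13.09 and 13.37, and Cd68 was 5.376 and 3.779 CPM against 12.46 and 14.43 in plasmablasts. Summed T and NK cell markers (9 genes) reached 9.06 and 8.76 CPM in naive cells and 0.318 to 2.08 CPM later. Dendritic cell markers (8 genes) summed to 9.43 to 80.6 CPM, with 80.6 and 55.6 CPM at 3 h, where Zbtb46 made up 1679 and 1746 counts, and 59 and 54.5 CPM in expanded cells, where Flt3 made up 2365 and 1834 counts. In bulk samples, fewer cells of a type and less RNA per cell cannot be told apart.

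The members that moved furthest were Tlr9 and Tlr1, and the member that rose first was Myd88, so the stretches before their starts are shown. They are RefSeq promoters of build GRCm38.p6, cut to the bases outside the gene's own RefSeq span and annotated exons. Tlr9 lies on chromosome 9, 106222598 to 106226876, plus strand, and the 250 bases before it are chr9:106222348-106222597. Tlr1 lies on chromosome 5, 64924680 to 64933600, minus strand, preceded by chr5:64933601-64933808. Myd88 lies on chromosome 9, 119335934 to 119340018, minus strand, and the stretch shown, chr9:119340042-119340268, begins outside its first annotated exon. Capitals mark matches to searched motifs.
Tlr9: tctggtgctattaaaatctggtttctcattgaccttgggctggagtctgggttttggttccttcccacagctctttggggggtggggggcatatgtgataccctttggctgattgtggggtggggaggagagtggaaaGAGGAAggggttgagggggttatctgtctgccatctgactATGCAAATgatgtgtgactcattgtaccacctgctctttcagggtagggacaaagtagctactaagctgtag
Tlr1: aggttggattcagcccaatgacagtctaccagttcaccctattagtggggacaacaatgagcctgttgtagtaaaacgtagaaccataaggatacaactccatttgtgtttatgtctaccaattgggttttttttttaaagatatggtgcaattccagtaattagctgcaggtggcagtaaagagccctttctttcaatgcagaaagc
Myd88: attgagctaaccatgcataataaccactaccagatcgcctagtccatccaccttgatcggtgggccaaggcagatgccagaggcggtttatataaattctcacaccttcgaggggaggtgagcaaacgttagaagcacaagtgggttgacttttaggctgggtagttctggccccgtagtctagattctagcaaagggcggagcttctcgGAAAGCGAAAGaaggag

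The 5 motifs were searched on both strands in the 250 bases before the start of all 32851 promoters in the table. The octamer ATGCAAAT, bound by the widely expressed Oct-1 and the lymphoid-enriched Oct-2, was found in 1.6% of promoters. The core GAGGAA, bound by PU.1, was found in 23.3%. Tlr9 held the octamer at -72 to -65 and the PU.1 core at -112 to -107. An interferon response core, a pair of GAAA repeats set 2 bases apart, was in 2.98% of promoters and the Blimp-1 letters AGNGAAAG in 7.3%. Myd88 held both, overlapping each other, at -40 to -31 and -37 to -30. Tlr1 held a PU.1 core at -23 to -18, past the end of the stretch shown, and Tlr2 held Blimp-1 letters at -192 to -185. For Tlr2, only 34 of the 250 bases lie outside the gene's RefSeq span and annotated exons, and the match is not among them. A single NF-kB motif, which is not palindromic, was present in 1.21% of promoters. It was in none of the 6 members with a promoter in the table (Tlr1, Tlr2, Tlr9, Cd180, Ly86 and Myd88). Other forms of the NF-kB site were not searched. A match is a description of letters and not of a bound factor.

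Levels are given as RPKM, counts scaled for exon length and for library size after TMM, so that genes can be compared. Changes are log2 fold changes from edgeR, 2 libraries against 2. Their standard error (SE) was derived from the F-test of the fit over all 12 libraries. A change was called where glmTreat, which tests whether a change exceeds 1.5-fold, gave an adjusted p under 0.05 over all genes. Of the 10 members, 9 were tested in the main fit of 12750 genes. Tlr7, on the X chromosome, was tested in a second fit that kept X and Y genes. All 9 were called at 1 or more of the 5 consecutive transitions, with 18 calls among 45 tests, 7 up and 11 down. Of all tested genes, 71.1% were called at 1 or more of these transitions, and 25.5% of all tests gave a call, 13.9% up and 11.6% down.

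**Figure D1:**
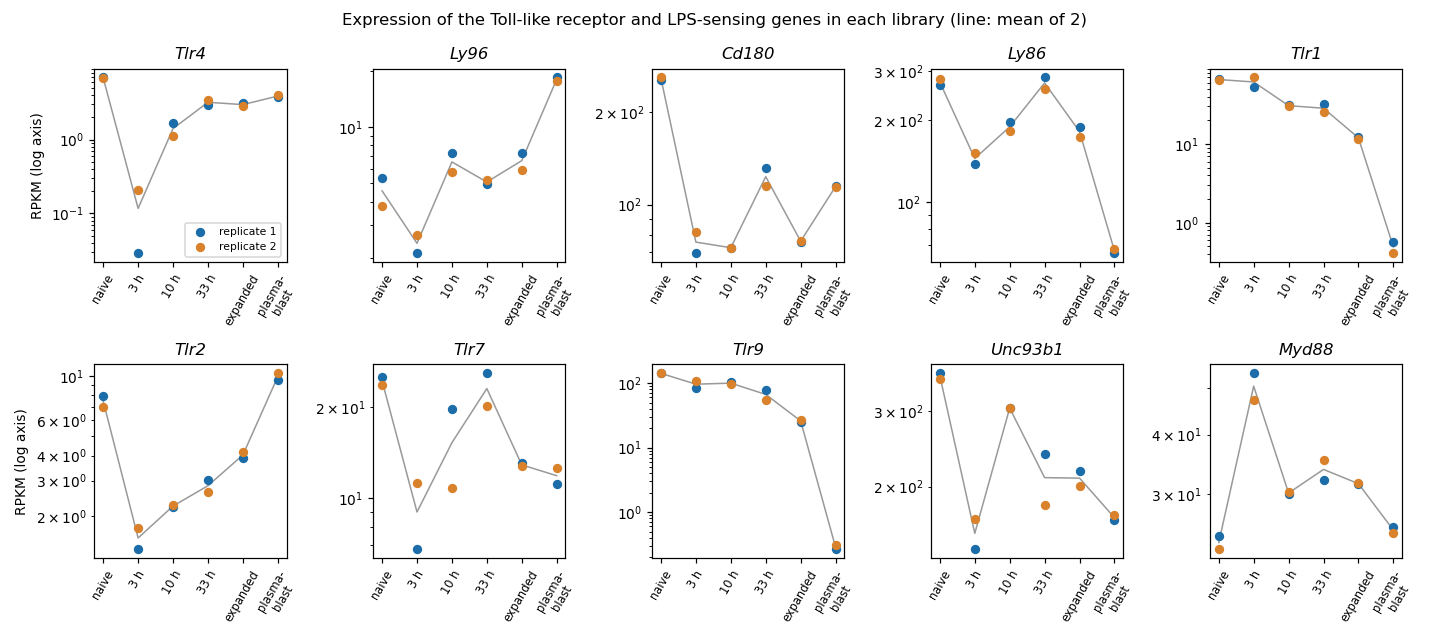
Each panel plots the RPKM (log axis) of a gene in the 12 libraries against stage, with replicates in blue and orange and a grey line through the mean of 2. Tlr4 drops to a mean of 0.117 RPKM at 3 h and returns, whereas Tlr1 and Tlr9 fall to 0.495 and 0.287 RPKM in plasmablasts.

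The LPS receptor itself was scarce in B cells and was almost lost soon after LPS was added. Tlr4 stood at 6.96 and 6.74 RPKM in the naive libraries, then 0.029 and 0.205 (3 h), 1.69 and 1.13 (10 h), 2.97 and 3.43 (33 h), 3.1 and 2.86 (expanded) and 3.8 and 3.97 (plasmablast). Every 3 h library was below every library of any other stage, and both naive libraries were above all later ones. The 3 h values rest on 2 and 24 counts, with exact 95% Poisson intervals of 0.00351 to 0.105 and 0.131 to 0.305 RPKM, which cover counting error only. From naive to 3 h, Tlr4 fell by 5.64 (SE 0.35, adjusted p = 4.2e-08). The size of this fall depended on which 3 h library was used, from -5.05 without replicate 1 to -7.87 without replicate 2. Tlr4 then rose by 3.37 to 10 h (SE 0.375, adjusted p = 2.9e-05), with 2.79 without 3 h replicate 1 and 5.58 without replicate 2. A further rise of 1.17 to 33 h was called (SE 0.241, adjusted p = 0.03), but not without 10 h replicate 2 (0.92, adjusted p = 0.24) or 33 h replicate 2 (1.07, adjusted p = 0.13). In the order of level, plasmablasts against 33 h and 33 h against expanded cells did not differ by the F-test (adjusted p of 0.3, in a pair of stages where 67.4% of all genes differed, and 0.76), whereas naive cells against plasmablasts and expanded cells against 10 h did (0.0064 and 0.0021).

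Myeloid marker RNA stood beside the naive values of Tlr4. The summed myeloid level differed 306 to 141 CPM between the naive replicates while Tlr4 was 6.96 and 6.74 RPKM. From 10 h on, Tlr4 was at 1.13 RPKM or more in libraries where 14 of the myeloid markers, without Itgam, Adgre1 and Cd68, summed to 0.586 to 1.43 CPM. That subset was chosen after its values were seen. At 3 h it summed to 0.13 and 0.395 CPM. The part of myeloid RNA in the naive level was not tested.

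**Figure D2:**
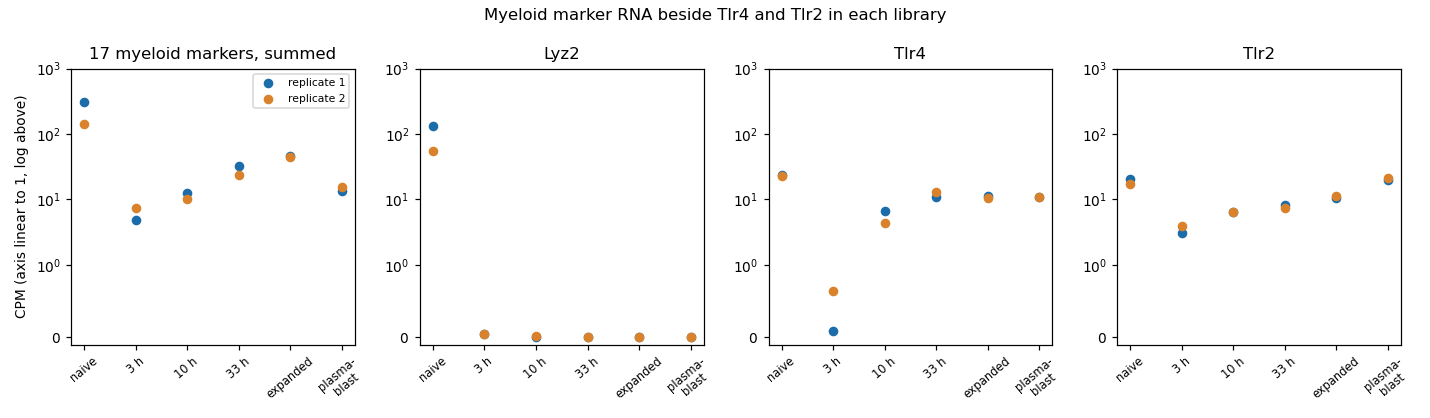
The panels plot CPM (linear up to 1, logarithmic above) per library against stage for 17 summed myeloid markers, Lyz2, Tlr4 and Tlr2, with replicates in blue and orange. Lyz2 is high in naive cells alone, at 5032 and 1642 counts, while Tlr4 and Tlr2 return at later stages with Lyz2 near 0.

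Ly96, the partner of Tlr4, moved in another way. It was 5.34 and 3.79 RPKM in the naive libraries, then 2.13 and 2.67 (3 h), 7.24 and 5.79 (10 h), 4.98 and 5.2 (33 h), 7.31 and 5.92 (expanded) and 18.4 and 17.49 (plasmablast). The plasmablast libraries were well above the rest and those at 3 h were the lowest. The difference of -0.92 from naive to 3 h did not pass glmTreat (SE 0.25, adjusted p = 0.072). Ly96 rose by 1.42 from 3 to 10 h (SE 0.238, adjusted p = 0.0026) and by 1.44 from expanded cells to plasmablasts (SE 0.199, adjusted p = 0.00073). It was the only member of the 9 called higher in plasmablasts than in naive cells, by 1.96 (SE 0.209, adjusted p = 1.4e-05).

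Cd180 and Ly86 were far more abundant than the Tlr4 pair. Cd180 was 254.8 and 259 RPKM in the naive libraries, then 69.65 and 81.58 (3 h), 72.61 and 72.4 (10 h), 131.5 and 115.1 (33 h), 75.89 and 76.33 (expanded) and 115.1 and 113.9 (plasmablast). Naive cells were the highest and no later library reached 132 RPKM. The call was made for the fall of 1.76 from naive to 3 h (SE 0.094, adjusted p = 4.2e-08). The later differences of 0.77 to 33 h, -0.70 to expanded cells and 0.59 to plasmablasts passed the F-test (adjusted p of 2.4e-05, 8.5e-05 and 0.00012, where 45.5%, 39.6% and 56.9% of all genes passed) but not glmTreat (0.06, 0.24 and 0.55). Of its transcript words of 81 bases, the read length, 2.34% also occur in Mast4.

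Ly86 was 266.9 and 280.8 RPKM in the naive libraries, then 138.2 and 150.7 (3 h), 195.7 and 181.2 (10 h), 285.4 and 259.4 (33 h), 188.8 and 173.3 (expanded) and 65.29 and 67.78 (plasmablast). The 33 h libraries lay around the naive ones, and plasmablasts were below all others. Ly86 fell by 0.92 from naive to 3 h (SE 0.0892, adjusted p = 0.00077) and fell by 1.44 from expanded cells to plasmablasts (SE 0.0909, adjusted p = 9.8e-07).

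Ratios within a library, which no scaling between libraries touches, set these partners apart. They are described without a test. Tlr4 was 1.3 and 1.78 times Ly96 in naive cells, 0.0136 and 0.0768 times at 3 h (exact 95% counting intervals 0.00156 to 0.0552 and 0.0451 to 0.128), and 0.206 and 0.227 times in plasmablasts. Cd180 was nearly equal to Ly86 in naive cells, at 0.955 and 0.923, lay between 0.371 and 0.541 in the 8 libraries from 3 h to expanded cells, and exceeded Ly86 in plasmablasts at 1.76 and 1.68. Ly86 exceeded Ly96 50 and 74 times in naive cells and 3.55 and 3.88 times in plasmablasts. Cd180 was 36.6 and 38.4 times Tlr4 in naive cells, 2403 and 398 times at 3 h, and 30.3 and 28.7 times in plasmablasts. With 2 counts of Tlr4 in 3 h replicate 1, the exact 95% counting interval of the first ratio at 3 h is 665 to 19853, and that of the second 267 to 622.

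**Figure D3:**
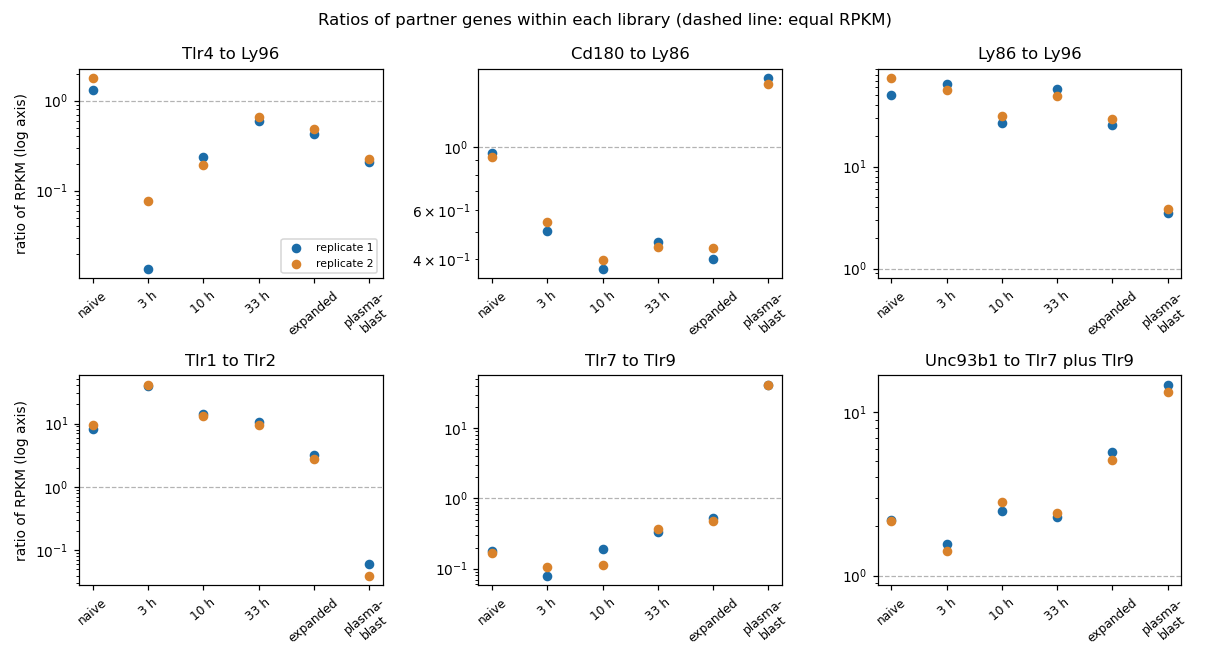
The panels plot the ratio of RPKM of partner genes (log axis) within each library against stage, with replicates in blue and orange and a dashed line at equal RPKM. Tlr7 to Tlr9 rises from 0.177 and 0.168 in naive cells to 41.3 in both plasmablast libraries, and Tlr1 to Tlr2 falls from 8.27 and 9.4 to 0.0606 and 0.04.

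The lipopeptide receptor subunits went in opposite directions at the end of differentiation. Tlr1 was 66.01 and 65.85 RPKM in the naive libraries, then 52.49 and 70.26 (3 h), 31.38 and 30.06 (10 h), 31.81 and 25.18 (33 h), 12.4 and 11.56 (expanded) and 0.578 and 0.412 (plasmablast). Naive and 3 h libraries overlapped, as did those at 10 and 33 h. Tlr1 fell by 1.0 from 3 to 10 h (SE 0.141, adjusted p = 0.0056), a call lost without 3 h replicate 2 (-0.76, adjusted p = 0.082). It fell by 1.25 from 33 h to expanded cells (SE 0.144, adjusted p = 0.00098) and fell by 4.61 to plasmablasts (SE 0.208, adjusted p = 6.3e-09). Its plasmablast level rests on 35 and 30 counts. Of its 81-base words, 9.72% also occur in other genes, Tlr6 among them, and reads from those stretches are uncertain between the genes.

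Tlr2 was 7.99 and 7.01 RPKM in the naive libraries, then 1.37 and 1.74 (3 h), 2.22 and 2.26 (10 h), 3.03 and 2.63 (33 h), 3.88 and 4.18 (expanded) and 9.52 and 10.32 (plasmablast). The stages did not overlap, and the mean level was higher at each stage after 3 h. However, 10 and 33 h did not differ by the F-test (adjusted p = 0.066), where 45.5% of all genes did. Tlr2 fell by 2.25 from naive to 3 h (SE 0.153, adjusted p = 1.8e-07) and rose by 1.30 from expanded cells to plasmablasts (SE 0.137, adjusted p = 0.00015). Between these, the steps of 0.51, 0.34 and 0.50 were not called. Tlr2 had 7.01 RPKM in the naive library with 141 CPM of myeloid markers and 7.99 in the one with 306 CPM. Its level was the highest of all in plasmablasts. There all 17 myeloid markers summed to 13.3 and 15.5 CPM, and the 14 chosen after their values were seen to 0.589 and 0.734 CPM. The part of myeloid RNA in the level of Tlr2 was not tested. Tlr1 was 8.27 and 9.4 times Tlr2 in naive cells, 38.4 and 40.5 times at 3 h, and 0.0606 and 0.04 times in plasmablasts.

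Of the receptors for nucleic acids, Tlr9 was almost lost in plasmablasts and Tlr7 was not. Tlr9 was 142 and 140.8 RPKM in the naive libraries, then 84.84 and 107.4 (3 h), 102.6 and 96.89 (10 h), 78.87 and 54.6 (33 h), 24.92 and 26.96 (expanded) and 0.268 and 0.305 (plasmablast). It was the most abundant of the 5 Toll-like receptor members in every stage but plasmablasts, where it was the lowest. The difference of -0.56 from naive to 3 h was not called (SE 0.148, adjusted p = 0.49). Tlr9 fell by 1.36 from 33 h to expanded cells (SE 0.151, adjusted p = 0.00056) and fell by 6.49 to plasmablasts (SE 0.231, adjusted p = 1.9e-09). That last value is a mean of 25.9 RPKM against 0.287, or 22 and 30 counts in plasmablasts, and from naive to plasmablast it fell by 8.93 (SE 0.238, adjusted p = 3.6e-11).

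Tlr7 was 25.14 and 23.66 RPKM in the naive libraries, then 6.771 and 11.18 (3 h), 19.67 and 10.78 (10 h), 25.85 and 20.16 (33 h), 13 and 12.71 (expanded) and 11.09 and 12.59 (plasmablast). Replicates were far apart at 3 and 10 h, and none of the neighbouring stages in its order of level differed by the F-test. Tlr7 fell by 1.43 from naive to 3 h (SE 0.281, adjusted p = 0.006, where 45.0% of the genes of that fit were called), with adjusted p = 0.094 when 3 h replicate 1 was left out. The difference of -0.12 from expanded cells to plasmablasts was not called (SE 0.276, adjusted p = 1). From naive to plasmablast the value was -1.04 (SE 0.276, adjusted p = 0.042, beside 49.8% of genes called), a call lost when either replicate of naive cells or of plasmablasts was left out, with values of -1.13 to -0.95. Tlr7 was 0.177 and 0.168 times Tlr9 in naive cells, 0.521 and 0.471 times in expanded cells and 41.3 times in both plasmablast libraries.

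Unc93b1, the transporter both need, was the most abundant member in naive cells. It was 367.6 and 357.3 RPKM in the naive libraries, then 143 and 168.1 (3 h), 304.4 and 305.4 (10 h), 238.5 and 181.1 (33 h), 217.4 and 201.1 (expanded) and 166.8 and 171.7 (plasmablast). The 3 h libraries overlapped with those of plasmablasts at the low end. Unc93b1 fell by 1.22 from naive to 3 h (SE 0.118, adjusted p = 5e-05) and rose by 0.97 to 10 h (SE 0.117, adjusted p = 0.0031). From naive to plasmablast it was called lower, by 1.10 (SE 0.117, adjusted p = 0.00021). Against the sum of Tlr7 and Tlr9 its ratio was 2.2 and 2.17 (naive), 1.56 and 1.42 (3 h), 5.73 and 5.07 (expanded) and 14.7 and 13.3 (plasmablast). In plasmablasts most Tlr9 RNA was gone, whereas the difference of Tlr7 from expanded cells was not called.

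Myd88 alone among the 9 members was called higher at 3 h. It was 24.47 and 23.02 RPKM in the naive libraries, then 53.82 and 47.31 (3 h), 30.01 and 30.33 (10 h), 32.17 and 35.46 (33 h), 31.47 and 31.66 (expanded) and 25.59 and 24.87 (plasmablast). Both 3 h libraries were above all others, and the highest stage mean was 2.13 times the lowest, the narrowest span of the 10 genes. Myd88 rose by 1.09 from naive to 3 h (SE 0.0951, adjusted p = 5.8e-05). The return of -0.74 by 10 h fell short of the threshold (SE 0.0938, adjusted p = 0.052), though it passed the F-test (adjusted p = 1.6e-05), as did 62.3% of all genes. Of its 81-base words, 5.44% are also in transcripts of Acaa1a.

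**Figure D4:**
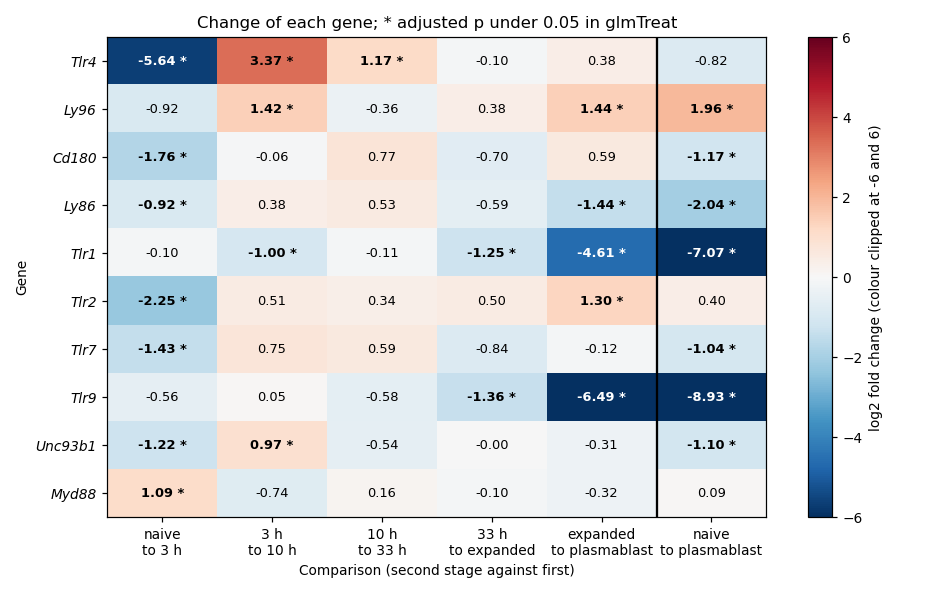
Rows are the 10 genes and columns the 5 consecutive comparisons and, right of the line, naive to plasmablast. Each cell gives the log2 fold change, coloured red for higher and blue for lower in the later stage, with an asterisk where the adjusted p of glmTreat was under 0.05. Among the 5 consecutive comparisons, the first and the fifth hold the most calls. Tlr1 and Tlr9 carry the deepest falls to plasmablasts.

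From naive to 3 h, 6 of 9 members were called, 1 up and 5 down, where 45.3% of all tested genes were, 21.0% up and 24.3% down. At 3 to 10 h 4 of 9 were called, 3 up and 1 down, beside 30.8% of all genes, 17.4% up and 13.4% down. At 10 to 33 h 1 of 9 was called, up, beside 14.5% of all genes, 10.1% up and 4.45% down. At 33 h to expanded cells 2 were called, both down, beside 10.6%, 6.94% up and 3.66% down. At expanded cells to plasmablasts 5 were called, 2 up and 3 down, beside 26.1%, 13.9% up and 12.2% down. From naive to plasmablast 6 were called, 1 up and 5 down, beside 50.0% of all genes, 26.6% up and 23.4% down. The median absolute log2 fold change of the 9 was 1.09 at the first transition and 1.3 at the last, against 0.842 and 0.522 over all tested genes. The calls are too few to set the 9 members apart from all genes.

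Genes whose levels followed a member most closely over the 12 libraries were found by Pearson's correlation of log2 CPM among 8612 or 8613 well expressed genes. For Tlr1 they were Tmem243 (r = 0.9949) and Chd3 (0.9939), and Tmem243 (0.9909) was also the closest to Tlr9, followed by Wars2 (0.9903). For Tlr4 they were AW112010 (0.9919) and 1110059E24Rik (0.9848), and for Tlr2 Wdr81 (0.9906) and Slc46a3 (0.9854). Tlr7 was followed by Cmpk2 (0.9542) and Psmb10 (0.943). For Cd180 they were Plekhm1 (0.9859) and Itih5 (0.9765), for Ly86 Exoc6 (0.9855) and Nxpe2 (0.9832), and for Ly96 Ccdc107 (0.9869) and Cilk1 (0.9837). Myd88 was closest to Nup62 (0.982) and Prdm4 (0.978), and Unc93b1 to Bmyc (0.9809) and 1600014C10Rik (0.9596). Between members, Tlr1 and Tlr9 had r = 0.988. These are descriptions, since the 12 points are 6 stages in pairs and the libraries' depth is shared by all genes.

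The rest of the pathway was read from 7 lists of 63 genes, of which 62 were in the table and 57 were tested, 5 of them in the fit with X genes. From naive to 3 h 10 were called up and 14 down. The later transitions gave 6 up and 10 down, 2 up and 0 down, 5 up and 3 down, and 9 up and 7 down. These are 42.1%, 28.1%, 3.51%, 14.0% and 28.1% of the 57, beside 45.3%, 30.8%, 14.5%, 10.6% and 26.1% of all genes. Their median log2 fold change was -0.24, -0.32, -0.06, -0.06 and 0.07, beside -0.03, 0.02, -0.02, -0.02 and -0.05 for all genes. With genes at the floor of 3 counts in both libraries set to their bound, these medians were -0.24, -0.34, -0.05, -0.003 and 0.02.

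**Figure D5:**
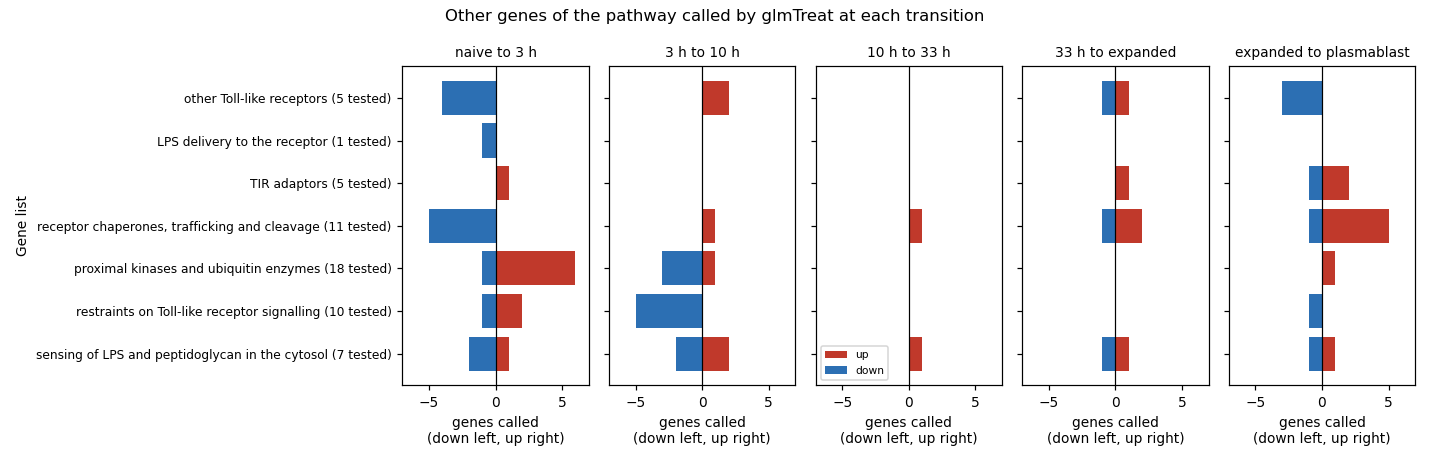
Bars give the number of genes of each of the 7 lists called up (red, right) or down (blue, left) by glmTreat at the 5 consecutive transitions, with the number tested after each list's name. The calls at 3 h include 4 down for other Toll-like receptors, 5 down for chaperones and proteases and 6 up for proximal kinases, and those at plasmablasts include 5 up for chaperones and proteases.

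Of the other Toll-like receptors, 5 of 7 genes were tested and 4 of these, Tlr3, Tlr8, Tlr12 and Tlr13, were called down from naive to 3 h, beside 24.3% of all genes called down. Tlr12 was 4.672 and 3.274 RPKM (naive), 0.08782 and 0.08276 (3 h), 1.246 and 1.144 (expanded) and 0.09341 and 0.03334 (plasmablast). It fell by 5.54 at the first step (SE 0.337, adjusted p = 2.5e-08) and fell by 4.27 from expanded cells to plasmablasts (SE 0.377, adjusted p = 2.5e-06). Tlr3, the receptor for double-stranded RNA, had 185 and 141 counts in naive cells, 5 and 7 at 3 h and 69 and 42 at 10 h. It rose by 2.35 from 3 to 10 h (SE 0.509, adjusted p = 0.0057). Tlr6, the other partner of Tlr2, was 7.884 and 7.501 RPKM in naive cells and 0.4072 and 0.3391 in plasmablasts. Its difference of -0.71 from naive to 3 h was not called (SE 0.153, adjusted p = 0.16). Tlr6 fell by 2.28 from expanded cells to plasmablasts (SE 0.212, adjusted p = 9.1e-06). Of its 81-base words, 8.61% are shared with Tlr1. Tlr8 had 31 and 9 counts and Tlr13 129 and 56 counts in the naive libraries with 306 and 141 CPM of myeloid markers, and at most 2 and 10 counts in any other library. The part of myeloid RNA in this was not tested. Tlr5 and Tlr11 were too low to be tested.

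Delivery of LPS to the receptor rests on Cd14 and LPS-binding protein (Lbp), which were hardly detected. Cd14 had 17 counts in each naive library, 0 in both at 3 h, and at most 7 in any later library. Myeloid markers summed to 306 and 141 CPM in the naive libraries, and the part of myeloid RNA in their Cd14 counts was not tested. Taken against the floor of 3 counts per library, the level of Cd14 at 3 h was at least 4.37-fold lower than in naive cells. This bound was not itself tested, and the fitted change was called down by glmTreat (adjusted p = 0.00059). Lbp had 13 and 3 counts in naive cells and 0 later. Tril was at 0 in all 12 libraries and Bpi had at most 7 counts, so neither was tested.

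Adaptors beside Myd88 changed in different stages. Ticam2 (TRAM), which brings TLR4 to its endosomal pathway, rose by 2.13 from naive to 3 h (4.317 and 3.694 to 17.81 and 17.28 RPKM, SE 0.116, adjusted p = 2.8e-08) and fell by 1.40 from expanded cells to plasmablasts (SE 0.112, adjusted p = 1e-05). Tirap, which bridges TLR2 and TLR4 to MyD88, rose by 1.30 from 33 h to expanded cells (SE 0.126, adjusted p = 0.00024) and again by 1.04 to plasmablasts, where it was 21.53 and 20.78 RPKM (SE 0.123, adjusted p = 0.0017). At the first transition 1 of the 5 tested adaptors was called, and at the last 3, of which 2 were up, beside 45.3% and 26.1% of all genes.

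Chaperones and proteases of the receptors divided at the plasmablast stage, with 5 of 11 called up and 1 down, beside 13.9% and 12.2% of all genes. Hsp90b1 (gp96), the endoplasmic reticulum chaperone for most Toll-like receptors, went from 156.7 and 155.5 RPKM in naive cells to 390.2 and 606 at 33 h, 1019 and 1122 in expanded cells, and 4254 and 4498 in plasmablasts. Cnpy3, its co-chaperone for the receptors, was 36.97 and 38.2 RPKM in expanded cells and 5.869 and 5.519 in plasmablasts, and it fell by 2.72 (SE 0.108, adjusted p = 3.8e-09). The pair thus moved in opposite directions. Ctsl, cathepsin L, a protease that can cleave endosomal receptors, rose by 3.22 to plasmablasts (SE 0.307, adjusted p = 9.6e-06). At 3 h, 5 of the 11 were called down and none up, beside 24.3% and 21.0% of all genes. Cnpy4 was among them and rose again by 1.40 at 10 h (SE 0.135, adjusted p = 4.4e-05). Rab7b was also among them, with a level at 3 h at least 3.38-fold lower against the floor of 3 counts per library.

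Of 18 kinases and ubiquitin enzymes below the adaptor, 6 were called up, 1 down and 11 neither at 3 h, beside 21.0% of all genes up and 24.3% down. Map3k8 (TPL2), which starts the ERK branch, rose by 3.08 from 2.074 and 1.809 to 19.72 and 13.37 RPKM (SE 0.186, adjusted p = 3.4e-08) and fell by 1.42 by 10 h (SE 0.166, adjusted p = 0.00019). Peli1, an E3 ligase for IRAK proteins, fell by 0.83 at 3 h (SE 0.131, adjusted p = 0.027). Irak1, on the X chromosome, rose by 1.09 from 3 to 10 h (SE 0.0998, adjusted p = 0.00017) and by 1.20 from expanded cells to plasmablasts (SE 0.0997, adjusted p = 3.4e-05).

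Of 10 genes that restrain the pathway, 2 were called up and 1 down at 3 h, where 45.3% of all genes were called, and 5 were called down by 10 h, beside 13.4% of all genes. Tnfaip3 (A20), a ubiquitin-editing inhibitor of NF-kB signalling, went from 10.32 and 9.754 RPKM (naive) to 234.6 and 162.4 (3 h) and back to 30.47 and 32.74 (10 h). It rose by 4.30 (SE 0.212, adjusted p = 1.5e-08) and then fell by 2.65 (SE 0.195, adjusted p = 2e-06). Sigirr, an inhibitory receptor of the same superfamily, fell by 2.06 at 3 h (SE 0.199, adjusted p = 6.4e-06). Irak3, a restraint on IRAK signalling, fell by 0.87 from expanded cells to plasmablasts (SE 0.127, adjusted p = 0.023).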

How the data were processed

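RNA of 12 sorted B cell samples was made into TruSeq libraries and sequenced on an Illumina NextSeq as 81 bp pairs. The authors aligned reads to mm10 with Rsubread and made the deposited counts per gene with featureCounts and its inbuilt Entrez annotation; CASAVA 1.8.2 is also named in the submitters' processing notes. Whether counting used strand is not given in the sources used here. As in the study's methods, mitochondrial, ribosomal RNA, X and Y, variable immunoglobulin and unmatched genes were removed, leaving 23700 genes, and filterByExpr kept 12750 of them (13195 with X and Y genes). R 4.3.3 and edgeR 4.0.16 were used: TMM, robust dispersions and quasi-likelihood fits over all 12 libraries in a one-way layout, glmTreat against 1.5-fold, F-tests for all 15 pairs of stages, and Benjamini-Hochberg adjustment at 0.05. RPKM use the deposited exon lengths. The members and gene lists were chosen with earlier results of these data known. Genes named are all members, the largest called rise and fall of each list per transition, genes of the first 2 lists, markers, and the closest pair of genes by correlation (log2 CPM with a prior count of 2, at least 3 on average). The study describes its replicates as biological. The exact permutation test of 2 against 2 could not go below 0.333 and was not used. The edgeR steps were tested on simulated data. DESeq2 1.42.0 was an alternative, and the closing section gives the effect of each. The authors' chromatin data were not used here. Some marker values are not reported here.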

Additional observations from a re-analysis of the deposited data

How the results depend on the processing

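Each log2 fold change was recomputed under other choices. Leaving out robust mode, the newer quasi-likelihood method, keeping the removed genes and the replicate block changed no call or direction of any member. Correlations of replicate deviations over the 15 pairs of stages ran from -0.139 to 0.0841, and none was over 0.1. The highest was that of expanded cells and plasmablasts. Whether libraries with the same replicate number shared mice or a culture is not given in the sources used here. These correlations cannot decide it, since the noise of single genes also lowers them. Leaving both naive libraries out of the fit, chosen after seeing the data, changed no call or direction among 40 values. Without a fold threshold, the F-test called 7, 5, 5 and 8 members from the second to the fifth transition, beside 62.3%, 45.5%, 39.6% and 56.9% of all genes, and 48, 38, 19, 26 and 30 pathway genes over the 5. At 10 to 33 h, 2 members were called with DESeq2 size factors or with no filter, and 0 with at least 10 counts in every library, which removes Tlr4; leaving out single libraries gave 0 to 2. In the fit with X and Y genes kept and library size alone, the median of all genes moved to -0.24, 0.35, -0.08, -0.03, -0.38 and -0.26 over the 6 comparisons. In the same fit, calls that were up went from 46.1% to 35.8% at naive to 3 h, from 56.6% to 77.6% at 3 to 10 h, from 53.6% to 28.7% at the plasmablast step and from 53.3% to 41.5% from naive to plasmablast. The order of the stages was then kept for 5 of 10 members. Tlr1 at 3 to 10 h lost its call (-0.68, adjusted p = 0.25). Under the DESeq2 Wald test, Unc93b1 at 3 to 10 h lost its call (0.89, adjusted p = 0.06). So did Tlr7 from naive to plasmablast in that test (-1.04, adjusted p = 0.15).

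All changes of sign were in values that were not called, and the cause was not tested. Tlr9 at 3 to 10 h was -0.0228 with DESeq2 size factors and -0.0225 in the Wald test, and -0.105 without 3 h replicate 1. Unc93b1 from 33 h to expanded cells was 0.0213 and 0.0214 in the same settings, 0.0277 with at least 10 counts, 0.0314 with the 4 libraries alone, 0.0197 after thinning, and -0.194 to 0.206 with single libraries left out, among them 0.0492. Cd180 at 3 to 10 h was 0.27 and Myd88 from naive to plasmablast -0.20 with library size alone. With single libraries left out, Cd180 at 3 to 10 h ran from -0.169 to 0.072, Tlr1 at naive to 3 h from -0.356 to 0.0966, and Tlr1 at 10 to 33 h from -0.284 to 0.0578. Depth limits Tlr4 (2 and 24 counts) and Ly96 (23 and 49) at 3 h, and Tlr1 (35 and 30) and Tlr9 (22 and 30) in plasmablasts.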

Other observations

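Sensing of LPS and peptidoglycan in the cytosol does not use the Toll-like receptors, and its 7 genes were all tested. From naive to plasmablast 2 were called up and 5 down, beside 26.6% and 23.4% of all genes. Nod1, a sensor of peptidoglycan fragments, was 9.025 and 9.783 RPKM in naive cells and 0.7324 and 0.5057 at 3 h, and it fell by 3.96 (edgeR glmTreat, SE 0.208, adjusted p = 7.7e-09), and no later library exceeded 0.801 RPKM. Nod2, its relative, was 0.5305 and 0.5622 RPKM in naive cells, 0.1709 and 0.143 at 10 h, and 2.245 and 2.236 in plasmablasts. It fell by 2.52 from 3 to 10 h (SE 0.207, adjusted p = 2.5e-06), rose by 2.44 to 33 h (SE 0.199, adjusted p = 3.7e-06) and rose by 1.37 to expanded cells (SE 0.161, adjusted p = 0.00074).

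Casp4, the mouse caspase-11 that binds LPS in the cytosol, was 12.11 and 13.65 RPKM in naive cells, 28.03 and 27.81 at 3 h, and 47.74 and 44.19 in plasmablasts. It rose by 1.12 at the first step (SE 0.11, adjusted p = 0.00013) and by 0.94 at the last (SE 0.106, adjusted p = 0.0032). Gbp2, a guanylate-binding protein of the family that exposes LPS to it, was 39.37 and 27.46 RPKM in expanded cells and 2.001 and 2.026 in plasmablasts, and it fell by 4.05 (SE 0.233, adjusted p = 1.3e-07). Gbp5 rose by 1.35 from 3 to 10 h (SE 0.175, adjusted p = 0.00058) and fell by 1.94 from 33 h to expanded cells (SE 0.178, adjusted p = 5.1e-05), with a difference of -0.23 to plasmablasts that was not called (adjusted p = 1).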
